A study of Mus musculus with 27 samples.

Results

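The mitochondrial ribosomal proteins described here are the genes whose symbol in the platform annotation starts with Mrpl or Mrps followed by a number. They were 76 of the 18193 genes that had a probe set with a single gene symbol, and each was read on its brightest probe set. By general knowledge 49 of them encode proteins of the large mitoribosomal subunit and 26 of the small one, with Mrps18a and Mrps30 counted as large. The remaining member, Mrps36, carries the family's name but is known as a component of the oxoglutarate dehydrogenase complex. All 76 were bright enough to enter the tests, with mean signals over all arrays between 273 (Mrps27) and 8220 (Mrpl51), which describe the probe sets and do not rank the genes. Of these members, 42 were covered by several probe sets and 34 by 1, and 9 were read on a probe set whose suffix warns that its probes may also match other transcripts. Symbols of 2 further family genes, Mrpl30 and Mrpl53, stood only on probe sets shared with another gene and were not used here.

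Mitochondria translate the few proteins of their own genome, all of them subunits of the respiratory chain and ATP synthase, on ribosomes of their own. The ribosomal RNAs are mitochondrial, while every mitoribosomal protein is encoded in the nucleus, made in the cytosol and imported. Many members descend from bacterial ribosomal proteins and others are found only in mitochondria. Erythroid cells of the fetal liver need mitochondria for haem synthesis and remove them as they mature into red cells.

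The series asked how gene expression in cultured fetal liver cells depends on the pocket proteins Rb1 and p107 (gene Rbl1), a pair of repressors of E2F-driven cell cycle genes. Cells of mouse fetal livers at embryonic day 14.5 were taken fresh (0 h) or kept 24 or 48 h in a serum-rich Iscove's medium without further treatment, and total RNA was hybridised to 27 Affymetrix arrays. Knockout of both genes (DKO) had 2, 1 and 1 arrays at 0, 24 and 48 h, knockout of Rb1 (Rb1KO) had 5, 4 and 2, knockout of p107 (p107KO) had 2, 2 and 1, and wild type (WT) had 3, 2 and 2. Strain, the altered part of each gene, and whether the replicates stem from different embryos were not stated in what was read for this work. The p-values therefore rest on the spread among these arrays alone, and that spread may be technical. Values are MAS5 signals, a linear brightness scale. Changes are differences of log2(signal + 32) with their standard error (SE) from limma, and a gene passed at an adjusted p under 0.05 over the 10916 genes tested.

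Rbl1 checked the p107 labels: its signal was 84.5 to 122.7 on the DKO arrays and 70.3 to 167.5 on the p107KO arrays, against 798.0 to 1745.5 on the WT arrays. Rb1 read 1507.1 to 2825.3 in Rb1KO at 0 h, against 6143.8 to 7105.4 in WT. At 48 h it read 5993.6 on the array labelled DKO and 4207.2 and 5452.8 on those labelled Rb1KO, against 5745.6 and 6583.2 in WT, so this probe set does not check the Rb1 labels at 48 h. The 4 arrays least like the others of their time were Rb1KO 0 h replicate 5 and replicate 1 of DKO, Rb1KO and p107KO at 24 h. Y-linked signal was present on 4 of 4 DKO, 3 of 11 Rb1KO, 2 of 5 p107KO and 0 of 7 WT arrays. The 6 erythroid markers measured summed to between 80656 and 216064 over all groups, while 7 hepatocyte markers summed to 157849 to 220842 in Rb1KO and 179605 to 205522 in WT at 0 h, and to at most 15487 in Rb1KO and 7549 in WT at 24 h. In such bulk samples fewer cells of a type and less RNA per cell cannot be told apart.

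On the deposited scale the members' median at 48 h lay below that at 24 h in all 4 genotypes, and in p107KO and WT cells that at 24 h lay near the fresh level. In DKO cells the median over the 76 members, as log2(signal + 32), averaged 10.93 ± 0.04 at 0 h (SD, n = 2) and was 10.75 and 10.42 on the single arrays at 24 h and 48 h. In Rb1KO cells it averaged 10.74 ± 0.24 at 0 h, 10.63 ± 0.13 at 24 h and 10.28 ± 0.11 at 48 h (SD, n = 5, 4 and 2). In p107KO cells it averaged 10.90 ± 0.12 at 0 h and 10.87 ± 0.06 at 24 h (SD, n = 2 each) and was 10.60 on the single 48 h array. In WT cells it averaged 10.89 ± 0.02, 10.89 ± 0.05 and 10.41 ± 0.03 at those times (SD, n = 3, 2 and 2). Within each genotype every 48 h array lay below every 24 h array. The wide spread of Rb1KO at 0 h came from replicate 5, at 10.35, while its other arrays lay between 10.67 and 10.96. From 24 h to 48 h the median over all genes tested moved less, lying between 9.12 and 9.38 and then between 9.27 and 9.44. At 0 h it lay higher, between 9.38 and 9.54. Relative to all genes the members thus stood higher at 24 h than fresh. In DKO, Rb1KO, p107KO and WT their median lay 1.44, 1.29, 1.37 and 1.37 above that of all genes at 0 h. At 24 h these values were 1.51, 1.42, 1.52 and 1.64.

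**Figure D1:**
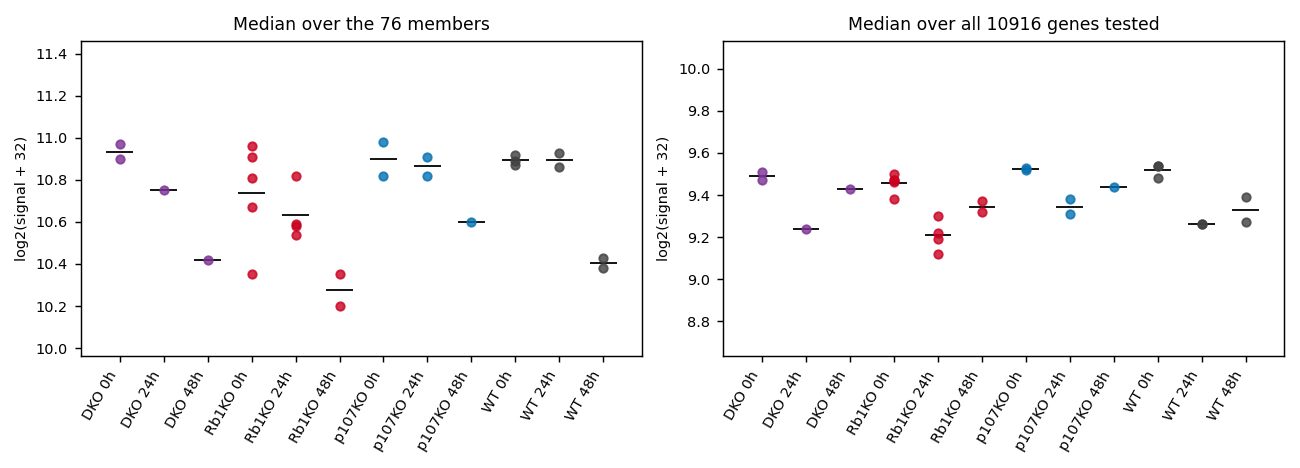
Median of log2(signal + 32) over the 76 mitochondrial ribosomal protein genes (left) and over all 10916 genes tested (right). Each point is 1 array, the short line is the group mean, and both axes span the same range; for the members every 48 h array lies below the 24 h arrays of its genotype.

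**Figure D2:**
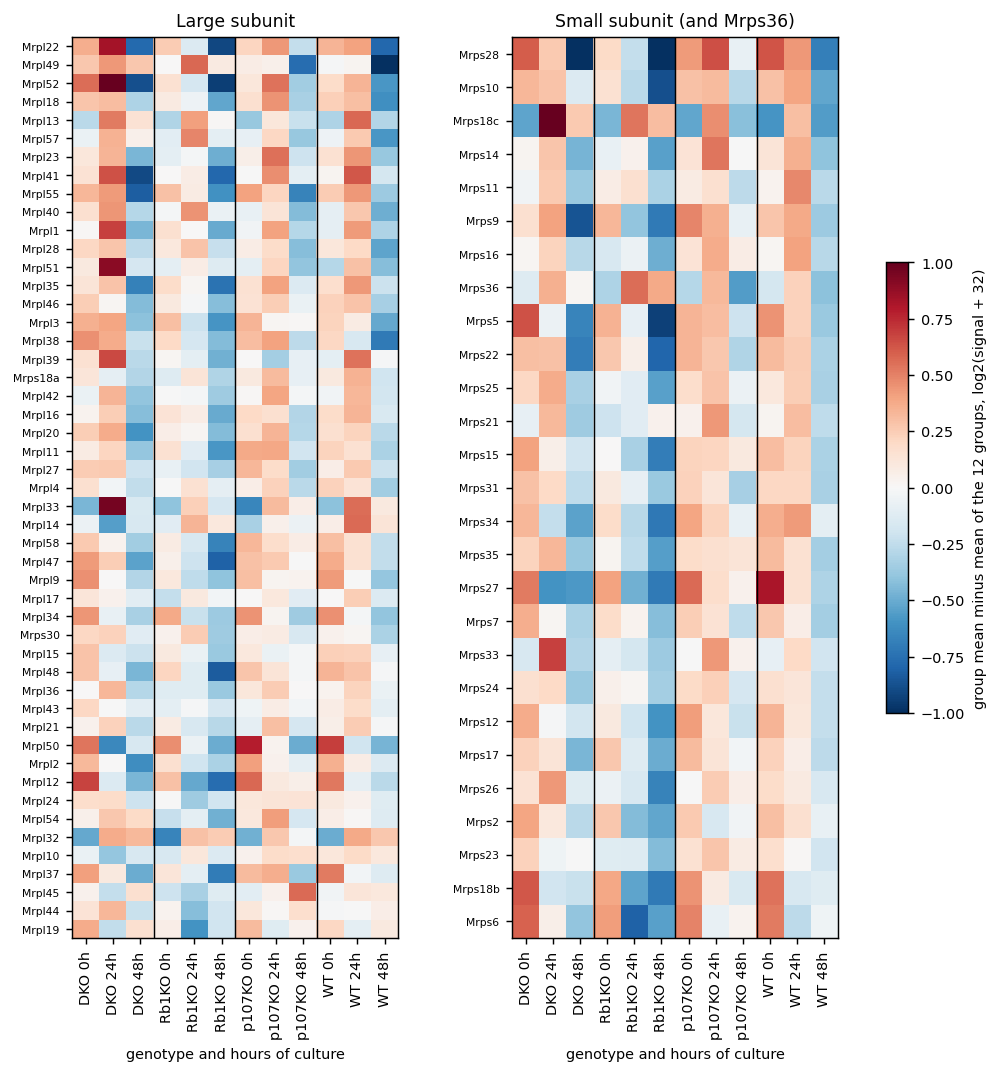
Each member's group mean minus the mean of its 12 group means, in log2(signal + 32), for DKO, Rb1KO, p107KO and WT at 0, 24 and 48 h, with the large subunit on the left and the small subunit and Mrps36 on the right. Red is above and blue below the member's own mean, and colours stop at -1 and 1. Most 48 h columns are blue, while Mrpl32, Mrpl33 and Mrps18c are lowest at 0 h. In WT and p107KO the 48 h mean of Mrps18c is near its 0 h mean.

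Between 24 h and 48 h of WT culture 27 of the 76 members fell and none rose, while 25.2% of all genes changed, 13.2% upward and 12% downward. Their median change was -0.48, against 0.03 over all genes tested. Of the 76 members, 72 had a lower mean at 48 h, a direction shared by 48.3% of all genes. In 61 of the members both 48 h arrays lay below both 24 h arrays, and the same held for 31.4% of all genes. The falls reached both subunits, with 18 of 49 large-subunit and 8 of 26 small-subunit members passing at medians of -0.48 and -0.52, together with Mrps36. They also reached members with a bacterial counterpart (16 of 47) and those found in mitochondria only (10 of 28). Without WT 24 h replicate 2 the count was 7, all lower, and with the mean over each gene's probe sets it was 17.

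Mrpl22, whose bacterial counterpart lines the exit tunnel of the large subunit, had the largest fall in WT. Its signal was 1185.2 and 895.5 at 48 h, against 2125.8 and 2677.1 at 24 h (log2 change -1.19 ± 0.21 SE, limma adjusted p = 0.000345). Mrps28, a small-subunit protein related to bacterial S1, read 968.5 and 901.6 at 48 h, against 1904.7 and 2268.9 at 24 h (-1.13 ± 0.28 SE, limma adjusted p = 0.00478, and 0.0587 without WT 24 h replicate 2). Mrpl49, a large-subunit protein found in mitochondria only, read 647.9 and 508.2 at 48 h, against 1129.5 and 1315.5 at 24 h (-1.05 ± 0.19 SE, limma adjusted p = 0.000431). In each of these 3 genes both 48 h arrays lay below both 24 h arrays. Mrpl52, Mrpl18, Mrps10, Mrpl13 and Mrps18c fell by 0.92, 0.91, 0.90, 0.86 and 0.85 on the log2 scale, of which Mrps10 (-0.78, limma adjusted p = 0.0545) and Mrpl13 (-0.58, limma adjusted p = 0.0666) no longer passed with the mean over their probe sets. No member's probe sets passed in opposite directions, and both Mrpl49 probe sets fell (-1.05 and -0.88). The members with the highest estimates did not pass: Mrps6, a relative of bacterial S6, at 0.22 ± 0.21 SE, Mrpl19 at 0.20 ± 0.21 SE and Mrpl44 at 0.07 ± 0.19 SE.

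Cells labelled Rb1KO showed the same direction on arrays of their own. Between 24 h and 48 h, 24 members fell and none rose, against 21% of all genes changed, 13.4% upward and 7.57% downward. The median change was -0.38, against 0.02 over all genes, and 70 of 76 members had a lower mean at 48 h, against 48.5% of all genes. Mrps28 again read low, at 654.3 and 648.5 at 48 h, against 1114.7, 1567.8, 1490.7 and 1060.3 at 24 h (-0.95 ± 0.24 SE, limma adjusted p = 0.00649). Mrpl41, a large-subunit protein without a bacterial counterpart, read 2315.7 and 1908.4 at 48 h, against 4598.8, 3457.1, 3851.9 and 3545.9 at 24 h (-0.86 ± 0.14 SE, limma adjusted p = 0.000176). Mrps22, a small-subunit protein found in mitochondria only, read 1035.4 and 1112.5 at 48 h, against 1920.0, 2091.8, 1805.2 and 2022.3 at 24 h (-0.85 ± 0.15 SE, limma adjusted p = 0.000381). The 2 late arrays lay below all 4 earlier ones in each of these genes, and the same was true of 39 members, against 15.8% of all genes. Mrps5, Mrpl22, Mrpl52, Mrpl35 and Mrpl48 fell by 0.85, 0.77, 0.76, 0.76 and 0.71 on their brightest probe sets. With the mean over probe sets Mrps5 was at -0.02 (limma adjusted p = 0.974), Mrpl35 at -0.22 (0.464) and Mrpl41 at -0.35 (0.175), so these 3 falls belong to the brightest probe set or, for Mrpl41, to 2 of 3. The count rested on few arrays: it was 4 without Rb1KO 48 h replicate 1, 8 without replicate 2, 15 without Rb1KO 24 h replicate 2 (1 of them higher) or replicate 3, 6 with only the Rb1KO 24 h and 48 h arrays in the fit, 15 with the mean over probe sets, 37 with each array centred on its median, and 4 once arrays carrying Y-linked signal were left out.

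The falls in Rb1KO and WT cells shared members. Of the 24 that fell in Rb1KO cells 15 (62.5%) also fell in WT cells, which is 55.6% of the 27 there, and 36 fell in at least 1 of the genotypes. The sign was the same in 72 of 76. With 72 members lower in WT and 70 in Rb1KO, most signs match whichever genes fell. Across the 76 members, which share arrays and are not independent replicates, the changes had a Pearson r of 0.65 and a Spearman rho of 0.58. The overlap, the signs and the correlation were not set against those of all genes. The test of the difference itself, the change of the Rb1KO-WT difference between 24 h and 48 h, passed for 0 members in limma (4 at an unadjusted p under 0.05, or 5.26%, against 7.07% of all genes, and 0 in every alternative run), against 0.0458% of all genes (0.0275% higher and 0.0183% lower). The single arrays of the other genotypes allow no spread of their own: 69 of 76 members were lower at 48 h than at 24 h in DKO cells, against 45.1% of all genes, with a median of -0.52, and 67 of 76 in p107KO cells, against 48.6%, with a median of -0.40.

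Among the 15 that fell in both, Mrpl57, Mrpl55 and Mrps14 changed by -0.59, -0.69 and -0.59 in Rb1KO cells and by -0.84, -0.80 and -0.76 in WT cells. The others of the 15 not yet named were Mrps11, Mrpl40, Mrpl28 and Mrpl46. The 12 that passed in WT and not in Rb1KO cells were Mrpl18, Mrpl13, Mrps18c, Mrpl23, Mrps9, Mrpl1, Mrpl51, Mrps36, Mrps21, Mrpl39, Mrps18a and Mrpl42, and of these Mrps21, a relative of bacterial S21, had opposite signs (0.16 in Rb1KO and -0.56 in WT). The 9 that passed in Rb1KO and not in WT cells were Mrps5, Mrpl16, Mrpl20, the peptidyl-tRNA hydrolase Mrpl58, Mrps7, Mrpl47, Mrps30, Mrpl48 and Mrps26, and all 9 were negative in WT too, from -0.59 for Mrps5 to -0.25 for Mrps26. Of the 40 that passed in neither, Mrpl19, Mrps6 and Mrpl44 were the members positive in both, at 0.40, 0.27 and 0.23 in Rb1KO. Over all 15 comparisons 54 members passed at least 1 and 22 passed none, and Mrps18c passed most, 8, followed by Mrpl49 and Mrpl41.

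**Figure D3:**
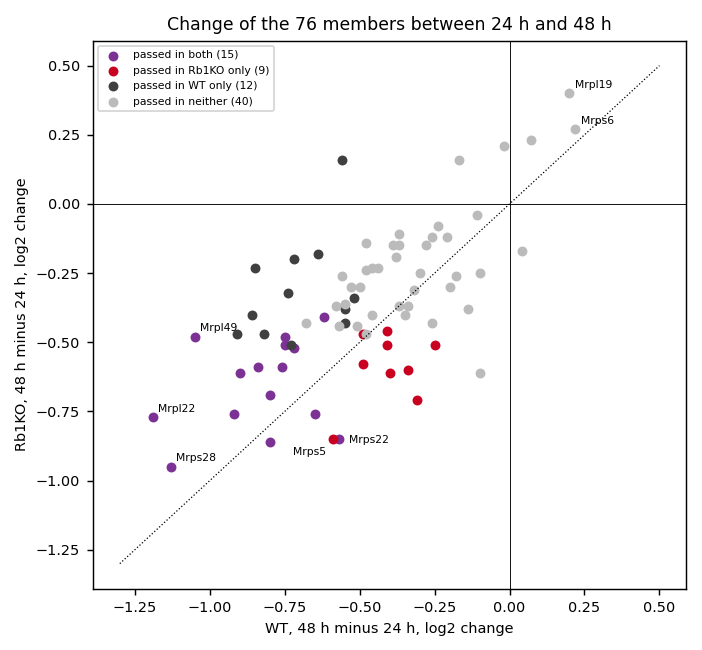
Log2 change between 24 h and 48 h for each of the 76 members in WT (horizontal) and Rb1KO (vertical), coloured by whether the change passed an adjusted p of 0.05. The dotted line marks equal change. Most members are negative in each genotype, 72 have the same sign in both, and 15 passed in both.

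Cell markers moved over the same interval. In WT the 6 megakaryocyte markers summed to 58064 and 63268 at 48 h, against 13070 and 21442 at 24 h, and the 6 neutrophil markers to 164801 and 174108, against 63668 and 94582. The 6 erythroid markers measured summed to 119844 and 132536 at 48 h, against 151814 and 152909 at 24 h. The 8 macrophage markers summed to 48966 and 62339 at 48 h, against 21162 and 38971 at 24 h. The sums of megakaryocyte, neutrophil and macrophage markers were thus higher and the erythroid sum lower. Of the 5 erythroid markers tested 2 fell in WT (median -0.31), and Hba-a1, which is in the sum, was below the filter. In WT 12 of 14 replication and mitosis genes fell (median -1.03). In Rb1KO cells the megakaryocyte markers summed to 39154 and 54875, against 9935 to 16183 on the 4 arrays at 24 h, the neutrophil markers to 130804 and 166723, against 42115 to 97708, the macrophage markers to 39233 and 68288, against 13004 to 35338, and the erythroid ones to 105816 and 121511, against 109783 to 216064. There 8 of 8 macrophage markers rose (median 1.32, against 5 of 8 and 1.26 in WT), 6 of 6 megakaryocyte markers rose (median 1.99) and 6 of 14 replication and mitosis genes fell (median -0.43). Of the 5 erythroid markers tested 3 fell in Rb1KO (median -0.51), where the erythroid sums of the 2 times overlapped. Late in WT culture 3 of 7 hepatocyte markers rose (median 1.39, and 1 passed with quantile normalization) and 2 of 4 stromal ones (median 1.02). In Rb1KO none of either list passed (medians -0.49 and 0.09). The part of these shifts in the members' fall was not tested.

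The first 24 h of culture moved members both ways, and on the deposited scale a smaller share of them passed than of all genes. At an unadjusted p under 0.05 in limma that share was 22.4% in WT, against 45.3% of all genes, and 40.8% in Rb1KO, against 56.3%. In WT cells 7 rose and 4 fell, against 36.9% of all genes changed (15% higher and 21.9% lower), and the median change was 0.06, against -0.08 over all genes. Mrps18c, 1 of 3 mammalian relatives of bacterial S18, read 5161.5 and 6221.6 at 24 h, against 2708.2, 3062.3 and 3413.6 at 0 h (0.89 ± 0.18 SE, limma adjusted p = 0.00052). Mrpl33, a relative of bacterial L33, read 1977.7 and 1369.9 at 24 h, against 743.5, 904.1 and 822.3 at 0 h (0.98 ± 0.33 SE, limma adjusted p = 0.0251, and 0.527 with the mean over its probe sets). Both were higher on each cultured array than on each fresh one, as were 23 of the 76 members and 27.9% of all genes. Mrpl13 and Mrpl32 rose by 0.88 each, Mrpl39 by 0.64, Mrpl41 by 0.61 and Mrpl51 by 0.58. Second probe sets of Mrpl39 and Mrpl41 gave 0.03 and 0.12 and did not pass. With the mean over probe sets Mrpl13 was at 0.00 (limma adjusted p = 0.99) and Mrpl51 at 0.07 (0.813). Of the 7 rises only those of Mrps18c and Mrpl32 passed there, but each has 1 probe set, so that setting cannot test them.

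Mrps6 read 538.0 and 615.4 at 24 h, against 1121.6, 1044.2 and 880.7 at 0 h in WT (-0.78 ± 0.19 SE, limma adjusted p = 0.00233). Mrpl50, found in the large subunit of mitochondria only, read 508.0 and 645.7 at 24 h, against 1054.1, 1151.0 and 1063.6 at 0 h (-0.89 ± 0.27 SE, limma adjusted p = 0.0133). Each was lower on both cultured arrays than on all 3 fresh ones, as were 15 of the 76 members and 37.4% of all genes. Mrps18b, another relative of S18, fell by 0.70 and Mrpl9 by 0.43. The split depended on scaling, which moved the median of all genes by 0.15 under quantile normalization and 0.26 under centring each array on its median: with centring 25 members rose and 1 fell, and Mrpl50, Mrps18b and Mrpl9 no longer passed. Without WT 24 h replicate 1 the count was 6 higher and 1 lower, with array weights 13 and 6, with only the WT arrays 12 and 7, and without the 4 arrays apart 10 and 7. Hepatocyte and stromal markers, which had median changes of -6.54 and -4.83 in WT in these hours, moved with these changes, and their part was not tested.

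In Rb1KO cells 8 members rose and 19 fell between 0 h and 24 h, against 51% of all genes changed (20.4% higher and 30.6% lower), with a median of -0.15, against -0.09 over all genes. Centring turned that split to 21 higher and 7 lower and the median to 0.10, so the members' direction as a group in these hours is set by the scaling. Mrps6 read 359.5, 415.7, 346.5 and 413.5 at 24 h, against 806.1, 846.8, 1136.5, 1094.3 and 878.7 at 0 h (-1.23 ± 0.14 SE, limma adjusted p = 1.41e-07). Mrps18c read 8145.8, 7241.6, 6063.7 and 5600.6 at 24 h, against 2993.1 to 3630.5 on the 5 arrays at 0 h (0.99 ± 0.13 SE, limma adjusted p = 2.05e-06). These genes moved as in WT cells and without overlap. Such separation held downward for 7 members and 22% of all genes, and upward for 7 members and 13.7%. Mrpl32, Mrps36, Mrpl13, Mrpl33, Mrpl57, Mrpl49 and Mrpl40 rose by 0.94, 0.88, 0.71, 0.64, 0.61, 0.57 and 0.47. Mrps18b, the pentatricopeptide repeat protein Mrps27, the ribosomal stalk protein Mrpl12, Mrps9, Mrps2, Mrpl19 and Mrpl34 fell by 0.92, 0.88, 0.80, 0.72, 0.72, 0.67 and 0.59. With the mean over probe sets Mrpl34 was at -0.03 (limma adjusted p = 0.89) and Mrpl19 at -0.29 (0.154), with centring Mrpl34 was at -0.35 (0.0893), and with quantile normalization Mrps27 was at -0.61 (0.113). The change of the Rb1KO-WT difference over these hours passed for 0 members in limma (8 of 76 at an unadjusted p under 0.05, against 10.8% of all genes, and 1 without Rb1KO 0 h replicate 4), against 0.824% of all genes (0.321% higher and 0.504% lower). Its lowest estimates were those of Mrps9 (-0.82 ± 0.22 SE, limma adjusted p = 0.0883) and Mrpl39 (-0.76 ± 0.22 SE, limma adjusted p = 0.12).

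In p107KO cells 3 members rose and 1 fell between 0 h and 24 h, against 28.1% of all genes changed (11.5% higher and 16.7% lower). Mrps18c read 8027.4 and 4991.4 at 24 h, against 2981.7 and 3451.6 at 0 h (0.97 ± 0.20 SE, limma adjusted p = 0.000711), and Mrpl32 and Mrpl41 rose by 0.75 and 0.47 and Mrps6 fell by 0.57, the last 2 not with the mean over probe sets (limma adjusted p = 0.291 and 0.0753). This count was 13 higher with centring, 1 without the 4 arrays apart, without p107KO 24 h replicate 1 or without p107KO 0 h replicate 2, 2 without p107KO 0 h replicate 1 or with only the p107KO arrays, 13 without p107KO 24 h replicate 2, 7 without Rb1KO 0 h replicate 5, and 0 once arrays carrying Y-linked signal were left out. In DKO cells, with the single arrays at 24 h and 48 h averaged, 3 members rose and 14 fell against 0 h, beside 32.1% of all genes changed (13.8% higher and 18.2% lower). Mrps18c read 10582.3 and 5512.8 in culture, against 3237.0 and 3110.8 at 0 h (1.26 ± 0.20 SE, limma adjusted p = 4.11e-05). Mrps18c was thus higher after 24 h of culture than fresh on every array of all 4 genotypes. The DKO falls rested on the 48 h array: without it 6 members were higher and 1 lower, without the 24 h array 2 were higher and 24 lower, and without DKO 0 h replicate 1 or 2 only 3 or 4 passed in all.

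Averaged over the culture times, 16 members were lower and 2 higher in Rb1KO than in WT cells, against 18.9% of all genes changed (10.3% higher and 8.57% lower). The members' share that passed, 18 of 76, is near that of all genes. The median difference was -0.21, against -0.07 over all genes. Of 49 large-subunit members 7 were lower and 1 higher, and of 26 small-subunit members 9 were lower and 1 higher. The largest deficits were those of Mrps28 (-0.54 ± 0.14 SE, limma adjusted p = 0.00883), Mrps34 (-0.50 ± 0.11 SE, limma adjusted p = 0.00301) and Mrpl48 (-0.45 ± 0.10 SE, limma adjusted p = 0.00291). Mrpl47, Mrps15, Mrpl41, Mrps6 and Mrps10 were lower by differences of -0.42, -0.41, -0.39, -0.38 and -0.38, of which Mrpl47 (-0.15), Mrps15 (-0.37), Mrpl41 (-0.20) and Mrps10 (-0.23) no longer passed with the mean over probe sets. The 2 that were higher were Mrpl49 (0.56 ± 0.10 SE, limma adjusted p = 0.000196) and Mrps18c (0.41 ± 0.10 SE, limma adjusted p = 0.00535). Without the 48 h arrays, an alternative chosen after seeing the data, 2 members were lower and none higher, and with Y-linked arrays left out 8 were lower and 2 higher. Leaving out Rb1KO 48 h replicate 2 gave 9 in all, against 11 without WT 24 h replicate 2 or WT 48 h replicate 1, and 10 with the mean over probe sets.

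In fresh cells no difference between Rb1KO and WT passed in limma for any member (2 at an unadjusted p under 0.05, or 2.63%, against 6.72% of all genes, and 0 in every alternative run), against 0.614% of all genes (0.0733% lower), and the median difference was -0.12. At 24 h 5 members were lower and 1 was higher in Rb1KO cells, against 7.63% of all genes changed (4.15% higher and 3.48% lower), with a median of -0.31, against -0.07. The share of members that passed is near that of all genes. At an unadjusted p under 0.05 in limma it was 35.5%, against 22.4%. Mrps9, a relative of bacterial S9, read 534.3, 571.8, 483.3 and 578.0 in Rb1KO cells, against 922.9 and 963.6 in WT cells (-0.77 ± 0.17 SE, limma adjusted p = 0.0058). Mrpl39, found in the large subunit of mitochondria only, read 5511.3, 5282.1, 5545.2 and 5692.0 in Rb1KO cells, against 8018.6 and 9258.0 in WT cells (-0.64 ± 0.17 SE, limma adjusted p = 0.0197). Neither gene overlapped between the genotypes, and 23 members were lower on all Rb1KO arrays at 24 h, against 15.6% of all genes. Mrps34, Mrps2 and Mrpl41 differed by -0.70, -0.60 and -0.56, and Mrpl49 by 0.54. With the mean over probe sets Mrps2 was at -0.11 (limma adjusted p = 0.72) and Mrpl41 at -0.44 (0.147). None of the 6 passed without either WT array or with only these groups in the fit, 3 passed without Rb1KO 24 h replicate 1, and 10 passed without Rb1KO 0 h replicate 5.

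At 48 h 3 members were higher and 3 lower on the arrays labelled Rb1KO than in WT, against 10.4% of all genes changed (7.46% higher and 2.91% lower), and the median difference was -0.21, against -0.09. The share of members that passed is thus below that of all genes. At an unadjusted p under 0.05 in limma it was 23.7%, against 22.9%. On both of these arrays 41 members lay below both WT arrays and 10 above, against 28.9% and 23.1% of all genes. Mrpl49 read 1169.4 and 1395.4 in Rb1KO cells, against 647.9 and 508.2 in WT cells (1.11 ± 0.19 SE, limma adjusted p = 0.000329), and its second probe set differed by 1.03. Mrps18c read 5578.6 and 5854.6 in Rb1KO cells, against 3317.4 and 2935.3 in WT cells (0.87 ± 0.20 SE, limma adjusted p = 0.0055). Mrps36 read 2250.4 and 2136.1 in Rb1KO cells, against 1002.1 and 1569.5 in WT cells (0.79 ± 0.23 SE, limma adjusted p = 0.0307). All 3 stood above the WT arrays. Mrps36 no longer passed under quantile normalization (limma adjusted p = 0.0642), under centring (0.0539) or without WT 48 h replicate 1 (0.36).

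Mrpl48, which sits in the large subunit and is found in mitochondria only, read 771.0 and 587.2 in Rb1KO cells, against 1118.6 and 1305.9 in WT cells at 48 h (-0.82 ± 0.20 SE, limma adjusted p = 0.00939). Mrpl41 read 2315.7 and 1908.4 in Rb1KO cells, against 3332.6 and 3129.8 in WT cells (-0.61 ± 0.16 SE, limma adjusted p = 0.0162), and its second probe set differed by -0.78, while the mean over its 3 probe sets did not pass (-0.30, limma adjusted p = 0.425). Mrpl35, a relative of bacterial L35, read 1489.0 and 1332.1 in Rb1KO cells, against 2081.0 and 1983.3 in WT cells (-0.52 ± 0.15 SE, limma adjusted p = 0.0311), and the mean over its probe sets did not pass (-0.19, limma adjusted p = 0.676). These 3 lay below both WT arrays. None of the 6 passed once arrays carrying Y-linked signal were left out, where 1 Rb1KO array is left at 48 h, though the differences kept their direction (Mrpl49 0.99, Mrps18c 0.83, Mrps36 0.83, Mrpl48 -0.63, Mrpl41 -0.47, Mrpl35 -0.44). Leaving out Rb1KO 48 h replicate 2 left 1 of the calls, WT 48 h replicate 1 left 3 and WT 48 h replicate 2 left 2, and a fit of these groups alone gave 2, against 11 without the 4 arrays apart. At 48 h 13 of 14 replication and mitosis genes were also higher in Rb1KO cells (median 1.08), summing to 177977 and 199128, against 88048 and 96816 in WT cells, and their part in these differences was not tested.

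**Figure D4:**
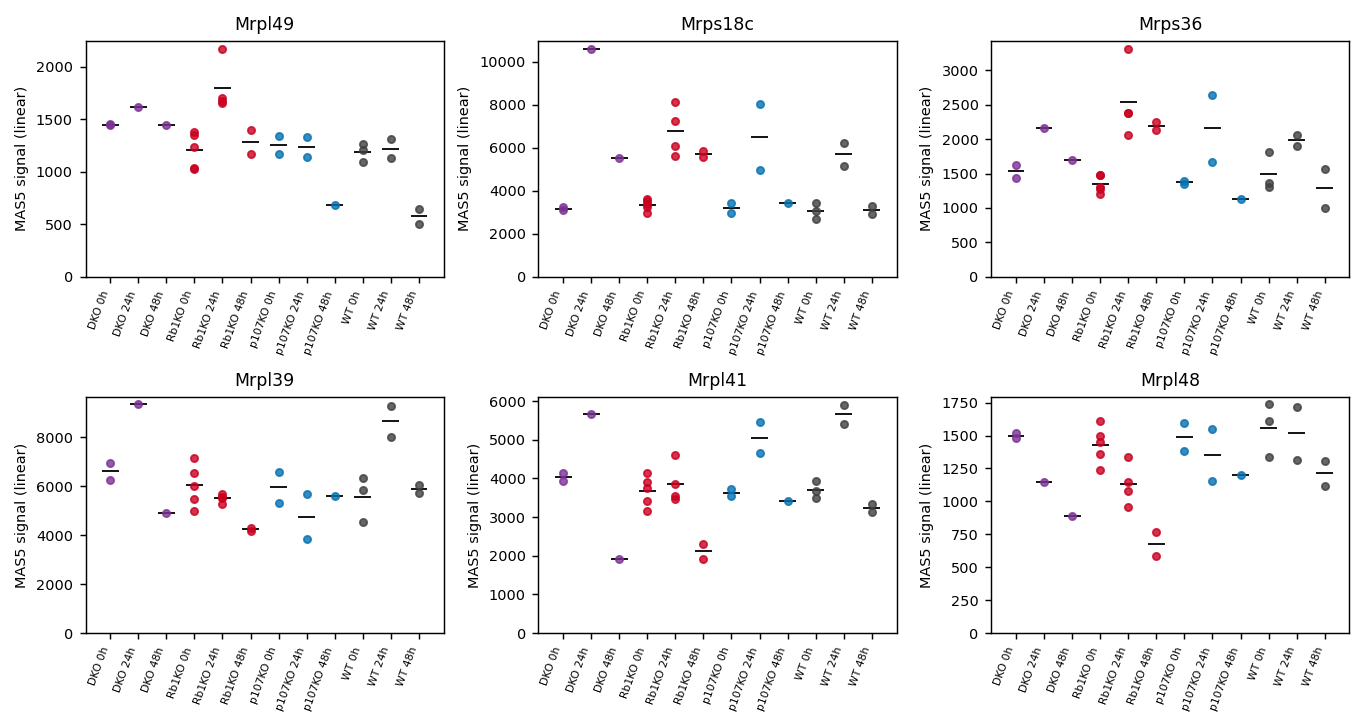
MAS5 signal of the 3 members higher at 48 h in Rb1KO than in WT (Mrpl49, Mrps18c, Mrps36) and of 3 that were lower in Rb1KO at 24 h or 48 h (Mrpl39, Mrpl41, Mrpl48), by genotype and hours of culture. Each point is 1 array and the short line is the group mean; Mrpl49 at 48 h reads 1169.4 to 1445.5 in Rb1KO and DKO and 508.2 to 689.7 in p107KO and WT.

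The arrays labelled DKO and p107KO also differ in their Rb1 label and are not among those of Rb1KO and WT. At 48 h the Rb1 probe set read 5993.6 on the DKO array and 5314.0 on the p107KO array, so it does not check the label there. Averaged over the times, 2 members were higher and none lower in DKO than in p107KO cells, against 7% of all genes changed (4.41% higher and 2.59% lower). They were Mrpl49 (0.54 ± 0.13 SE, limma adjusted p = 0.013) and Mrps18c (0.47 ± 0.14 SE, limma adjusted p = 0.0466). Mrpl49 read 1445.5 on the DKO array at 48 h, against 689.7 on the p107KO array, and Mrps18c read 5512.8, against 3431.0. Mrps36 read 1701.4, against 1127.5, while Mrpl48 read 887.6, against 1204.1, Mrpl41 read 1928.0, against 3422.5, and Mrpl35 read 1466.2, against 2145.9. All 6 members that differed at 48 h between Rb1KO and WT thus had the same direction between these single arrays, which give no test. How often other genes that passed at 48 h kept their direction there was not counted. Over all members 54 of 76 were lower on the DKO array at 48 h, against 57% of all genes. Both calls were lost without the 48 h arrays, Mrps18c also with no filter, with only the DKO and p107KO arrays, without the 4 arrays apart or with a replicate block, and single arrays left out in turn gave 0 to 3 calls, with 0 without p107KO 48 h replicate 1 or DKO 48 h replicate 1. All 4 DKO arrays carried Y-linked signal, against 2 of 5 p107KO arrays, and its part was not tested.

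Loss of p107 moved no member past the threshold. Between p107KO and WT over the times 0 members passed in limma (2 at an unadjusted p under 0.05, or 2.63%, against 6.49% of all genes, and 0 in every alternative run), against 0.0183% of all genes, and the median difference was 0.05. The smallest p-values belonged to Mrpl38, found in the large subunit of mitochondria only (0.37 ± 0.14 SE, limma adjusted p = 0.604), and Mrpl39 (-0.28 ± 0.12 SE, limma adjusted p = 0.681). Between DKO and Rb1KO over the times 0 members passed in limma (24 at an unadjusted p under 0.05, or 31.6%, against 15.3% of all genes), against 0.999% of all genes (0.595% higher and 0.403% lower) at the adjusted threshold. Of the members 69 of 76 had a positive estimate, against 55.5% of all genes, and the median was 0.18. With array weights 6 members passed, all higher, with the replicate block 2, and without the 48 h arrays, DKO 48 h replicate 1 or either p107KO 24 h array 1. The nearest to passing were Mrps26 (0.45 ± 0.12 SE, limma adjusted p = 0.0772) and Mrpl52 (0.56 ± 0.16 SE, limma adjusted p = 0.0939).

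The promoters of the 6 members that differed at 48 h between Rb1KO and WT are shown. Each runs from 250 bases before to 50 bases after the gene's start in RefSeq (GRCm38.p6), and capitals mark letters that match a searched motif on either strand.
Mrpl49, chr19:6057706-6058005, minus strand: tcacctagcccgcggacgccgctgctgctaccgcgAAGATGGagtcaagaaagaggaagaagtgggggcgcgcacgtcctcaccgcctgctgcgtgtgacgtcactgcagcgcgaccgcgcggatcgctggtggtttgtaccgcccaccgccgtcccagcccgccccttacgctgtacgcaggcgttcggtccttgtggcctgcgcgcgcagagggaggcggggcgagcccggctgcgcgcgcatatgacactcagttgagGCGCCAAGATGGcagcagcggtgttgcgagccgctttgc
Mrps18c, chr5:100798509-100798808, plus strand: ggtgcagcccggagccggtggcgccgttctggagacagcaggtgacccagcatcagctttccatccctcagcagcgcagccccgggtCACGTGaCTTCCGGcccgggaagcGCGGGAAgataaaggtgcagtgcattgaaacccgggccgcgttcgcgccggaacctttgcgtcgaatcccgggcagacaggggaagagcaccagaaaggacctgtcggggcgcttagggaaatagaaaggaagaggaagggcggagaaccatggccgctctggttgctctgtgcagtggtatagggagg
Mrps36, chr13:100744610-100744909, minus strand: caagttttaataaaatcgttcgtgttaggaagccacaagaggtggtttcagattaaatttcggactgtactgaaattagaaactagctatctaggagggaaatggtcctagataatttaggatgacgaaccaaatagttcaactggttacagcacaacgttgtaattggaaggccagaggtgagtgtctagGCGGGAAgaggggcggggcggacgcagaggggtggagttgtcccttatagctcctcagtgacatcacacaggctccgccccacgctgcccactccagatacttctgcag
Mrpl48, chr7:100608252-100608551, minus strand: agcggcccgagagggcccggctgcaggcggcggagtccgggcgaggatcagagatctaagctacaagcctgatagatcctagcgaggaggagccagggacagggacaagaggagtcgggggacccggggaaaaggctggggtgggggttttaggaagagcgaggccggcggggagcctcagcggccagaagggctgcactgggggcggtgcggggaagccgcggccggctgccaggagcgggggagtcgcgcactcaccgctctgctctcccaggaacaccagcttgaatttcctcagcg
Mrpl41, chr2:24975049-24975348, minus strand: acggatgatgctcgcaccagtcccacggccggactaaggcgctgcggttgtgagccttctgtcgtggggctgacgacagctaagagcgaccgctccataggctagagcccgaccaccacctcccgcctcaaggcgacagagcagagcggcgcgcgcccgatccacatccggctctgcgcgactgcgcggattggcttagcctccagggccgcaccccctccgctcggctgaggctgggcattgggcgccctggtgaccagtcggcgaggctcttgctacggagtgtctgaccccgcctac
Mrpl35, chr6:71823735-71824034, minus strand: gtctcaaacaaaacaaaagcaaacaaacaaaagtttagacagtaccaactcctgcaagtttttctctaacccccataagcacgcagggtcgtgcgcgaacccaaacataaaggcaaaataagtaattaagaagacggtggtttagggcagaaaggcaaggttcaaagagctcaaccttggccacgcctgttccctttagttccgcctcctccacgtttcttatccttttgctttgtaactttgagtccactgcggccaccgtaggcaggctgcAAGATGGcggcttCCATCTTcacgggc
The first 3 belong to the members that were higher in Rb1KO cells and the last 3 to those that were lower, and Mrps36 and Mrpl35 were added after their values were seen. Of the 4 entries of Mrpl48 the one shown lies farthest upstream.

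The motifs searched were TGCGCA (core of the NRF1 site), CCGGAAG (an ETS site, as for GABPA), AAGATGG (YY1), CACGTG (an E-box) and TTCCCGC or TTGGCGC (E2F), on both strands. E2F letters stood in all 3 promoters of the members higher at 48 h: GCGGGAA began 139 bases before the start of Mrps18c and 59 bases before that of Mrps36, and GCGCCAA stood downstream of the start of Mrpl49, where its last 2 bases are the first 2 of an AAGATGG. In Mrpl48 and Mrpl41 none of the motifs was in the window shown, and of the other entries of Mrpl48 the one at chr7:100583081-100583380 held CTTCCGG. Mrpl35 held AAGATGG and its reverse CCATCTT, without overlap, downstream of its start. Mrps18c also held CACGTG and CTTCCGG, side by side but for 1 base. Of the 73 promoter entries that matched 67 members, 8 held E2F letters (11%), against 6.81% of all 32851 entries and 11.9% of entries of the genes tested. Those 8 belonged to Mrpl12, Mrpl49, Mrps12, Mrps14, Mrps18c, Mrps23, Mrps36 and Mrps9, and Mrps9 was lower in Rb1KO over the times (-0.36 ± 0.10 SE, limma adjusted p = 0.0125). At 48 h the estimates of Mrpl12 (-0.50), Mrps12 (-0.35), Mrps9 (-0.35), Mrps23 (-0.25) and Mrps14 (-0.14) were negative in Rb1KO against WT and did not pass.

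The NRF1 core stood in 22 of the 73 entries (30.1%), against 7.76% of all entries and 13.6% of those of the genes tested. The ETS letters stood in 25 (34.2%), against 8.86% and 17.6%, and those of YY1 in 13 (17.8%), against 6.34% and 7.07%. The E-box stood in 7 (9.59%), against 7.15% and 10%. These are counts of entries, not of genes: overlapping entries of Mrpl2 each count for the E-box, and those of Mrps16 for the NRF1 core. The members' promoters held a median of 21 CpG dinucleotides, against 20 in those of the genes tested and 7 in all entries. In culture, the promoters of the members that moved most in WT were as varied: those of Mrpl33 and Mrpl50, which rose and fell, are printed for their contrast in the first 24 h.
Mrpl33, chr5:31613701-31614000, plus strand: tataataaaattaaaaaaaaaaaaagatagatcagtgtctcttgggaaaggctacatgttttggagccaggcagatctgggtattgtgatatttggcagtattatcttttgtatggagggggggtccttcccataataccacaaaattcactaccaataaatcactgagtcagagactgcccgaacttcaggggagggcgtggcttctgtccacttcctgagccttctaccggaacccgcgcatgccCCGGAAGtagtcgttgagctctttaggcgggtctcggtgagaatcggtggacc
Mrpl50, chr4:49521034-49521333, minus strand: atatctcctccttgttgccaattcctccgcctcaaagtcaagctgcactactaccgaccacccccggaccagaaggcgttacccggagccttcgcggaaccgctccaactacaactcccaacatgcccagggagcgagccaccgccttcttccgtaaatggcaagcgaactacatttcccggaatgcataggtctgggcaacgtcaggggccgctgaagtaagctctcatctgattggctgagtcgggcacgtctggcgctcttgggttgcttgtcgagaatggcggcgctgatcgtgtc
Mrps6, chr16:92058086-92058385, plus strand: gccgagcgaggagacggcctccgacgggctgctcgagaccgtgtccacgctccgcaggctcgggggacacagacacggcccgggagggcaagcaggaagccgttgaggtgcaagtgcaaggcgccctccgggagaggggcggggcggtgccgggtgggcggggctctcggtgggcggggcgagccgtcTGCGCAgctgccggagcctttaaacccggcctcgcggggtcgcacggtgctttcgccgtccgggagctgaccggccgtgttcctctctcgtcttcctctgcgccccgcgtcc
Mrpl33 held the ETS letters across its start and 10 CpG, Mrpl50 none of the motifs and 22 CpG, and Mrps6, which fell, the NRF1 core and 39 CpG.

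Genes that act with the mitoribosome were read beside it. Over all genes, between 0 h and 24 h, 30.6% fell and 20.4% rose in Rb1KO, and 21.9% fell and 15% rose in WT. Between 24 h and 48 h, 7.57% fell and 13.4% rose in Rb1KO, and 12% fell and 13.2% rose in WT. Of the 5 measured genes listed as mitoribosomal proteins with other names, which include the membrane insertase Oxa1l, 2 fell late in culture in each genotype and none rose. Dap3, a GTP-binding small-subunit protein, fell between 24 h and 48 h by 0.70 in Rb1KO and 0.86 in WT, and Chchd1 by 0.64 and 0.80. Of 25 mitoribosome assembly factors tested, 9 in Rb1KO and 5 in WT cells fell between 0 h and 24 h and 5 in each fell between 24 h and 48 h, with none rising. Centring and quantile normalization added 3 and 1 higher in Rb1KO and 2 and 2 in WT in the first interval, with medians of -0.06 and -0.01, and 0.02 and 0.13. Noa1, a GTPase of small-subunit assembly, and Fastkd2, an RNA-binding protein of large-subunit assembly, were among the early falls (-1.28 and -1.47 in Rb1KO, -0.94 and -0.79 in WT). Of 13 translation factors, 8 in Rb1KO and 4 in WT fell in the first 24 h, among them the elongation factor Tufm (-0.93 in Rb1KO and -0.52 in WT) and its exchange factor Tsfm (-1.02 and -0.76), and 1 rose in Rb1KO. With centring those counts were 4 lower and 3 higher in Rb1KO and 0 lower and 2 higher in WT. Genes listed as aminoacyl-tRNA synthetases of mitochondria moved mostly down in these hours. That list also holds the amidotransferase subunits Qrsl1, Gatb and Gatc, and Kars and Gars, which serve the cytosol too. Of its 20 genes 12 were lower and 2 higher in Rb1KO. In WT 6 were lower and 2 higher, though 3 lower and 3 higher with centring. Among them, in WT Yars2 fell by 1.34, while Fars2 rose by 1.75.

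Of 43 cytosolic ribosomal proteins 30 rose and 4 fell in Rb1KO between 0 h and 24 h (median 0.51), and 27 rose and 3 fell in WT (median 0.71). Of 75 respiratory chain and ATP synthase subunits 24 rose and 6 fell in Rb1KO (median 0.22), and 19 rose and 3 fell in WT (median 0.33). Under quantile normalization the cytosolic counts were 6 higher and 2 lower in Rb1KO and 2 higher and 1 lower in WT, with medians of 0.04 and 0.03. The respiratory ones were 7 higher and 12 lower in Rb1KO and 5 higher and 4 lower in WT, with medians of 0.03 and 0.00. Centring went the other way. The cytosolic counts were then 34 higher and 2 lower in Rb1KO and 34 higher and 1 lower in WT (medians 0.76 and 0.97). The respiratory ones were 47 higher and 4 lower in Rb1KO and 46 higher and 1 lower in WT (medians 0.47 and 0.59). Between 24 h and 48 h the respiratory subunits fell much like the mitoribosome, with 22 lower and 0 higher in Rb1KO (median -0.42) and 26 lower and 0 higher in WT (median -0.45), and under both scalings their counts stayed all lower. Of the 43 cytosolic ribosomal proteins 4 fell in each genotype, at medians of -0.38 and -0.32. Of all genes 7.57% fell in Rb1KO and 12% in WT. Of 13 regulators of mitochondrial transcription and biogenesis, 6 in each genotype fell in the first 24 h, among them the mitochondrial RNA polymerase Polrmt (-1.39 in Rb1KO and -1.21 in WT) and the DNA-packaging factor Tfam (-0.87 and -0.84). Over the times the release factor Mtrf1l was higher in Rb1KO than in WT (0.74 ± 0.14 SE, limma adjusted p = 0.000609) while Tufm (-0.39 ± 0.10 SE, limma adjusted p = 0.00647) was lower. The differences between these lists were not tested.

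**Figure D5:**
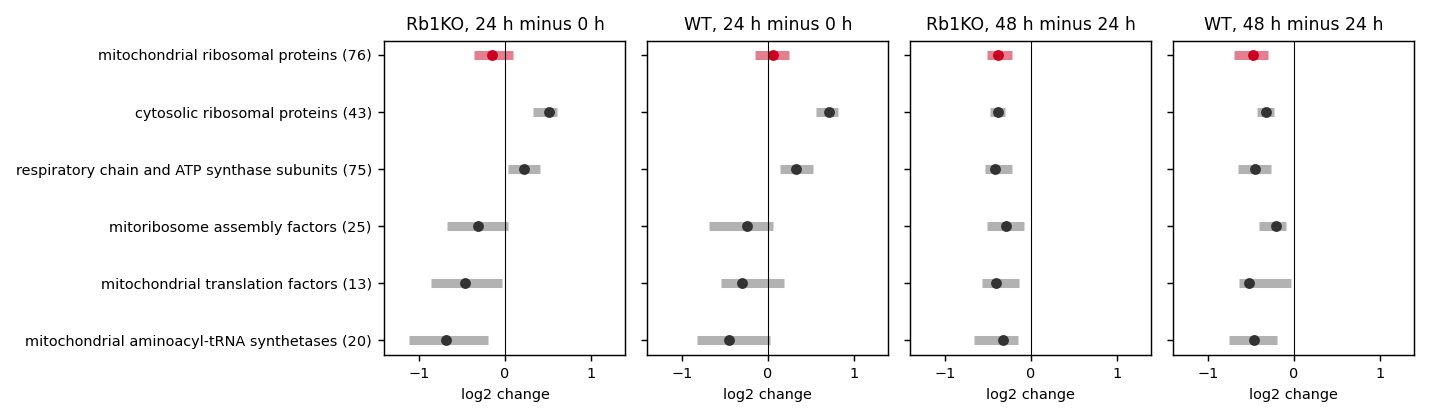
Median log2 change (point) and lower to upper quartile of the genes (bar) for the mitochondrial ribosomal proteins and 5 related gene lists, with the number of genes tested in brackets, for Rb1KO and WT over 0 h to 24 h and 24 h to 48 h. In the first interval the cytosolic ribosomal proteins have medians of 0.51 and 0.71, the members -0.15 and 0.06, and in the second all 6 medians are negative in both genotypes.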

How the data were processed

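Total RNA of 27 samples in 12 genotype-by-time groups was hybridised to 1-colour Affymetrix arrays. The authors deposited linear intensities (MAS5 signals) from GCOS 1.4 per the submitters' processing notes. Precision is limited by how many arrays each group has. Of 45037 probe sets, the platform annotation gave 34945 a single symbol, 932 several and 9160 none. The brightest probe set stood for each of 18193 genes, the dimmest 40% by mean over all arrays were left out, and deposited intensities were used as log2(signal + 32). One limma 3.58.1 model (R 4.3.3), with a mean per group and a trended prior, was fitted to all 27 arrays and checked on simulated data. P-values were adjusted by Benjamini-Hochberg over 10916 genes in each of 15 comparisons, with a threshold of 0.05. Named members were, per comparison, up to 8 in each direction with the largest changes among those that passed, or up to 3 with the smallest p-values where fewer than 3 passed, the members in the late overlap being named in full after seeing the data. Genes of other lists were taken from those with the smallest adjusted p. Another 13 settings covered scaling, filter, probe sets, weights, block and arrays left out, and 1 was added after seeing the data. Promoters came from RefSeq entries for 67 members, and Mrps36 and Mrpl35 were added to those printed after their values were seen. Replicate numbers were not taken to pair the samples. Members and gene lists were chosen with earlier results of these data known.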

Additional observations from a re-analysis of the deposited data

Results flagged for a closer look

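Among 88 sets of 4 or 5 Rb1KO arrays tested for a stray value (the named members and the members' median, at 24 h and 0 h), 3 held 1 array far from the rest by Dixon's criterion, which chance alone meets in about 1 in 20 sets. Mrpl49 read 2166.7 on Rb1KO 24 h replicate 1, while its other arrays lay between 1656.9 and 1706.3. Mrpl34 read 1584.7 on Rb1KO 24 h replicate 2, against 1143.7 to 1165.0 on the others. Mrps21 read 1356.8 on Rb1KO 0 h replicate 5, against 1550.1 to 1587.3 on the others. Rb1KO 24 h replicate 1 and Rb1KO 0 h replicate 5 are among the 4 arrays least like the others of their time.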

How the results depend on the processing

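No named member that passed turned sign under any alternative run, but with the mean over probe sets several changes came near 0: Mrpl13 0.00 and Mrpl51 0.07 in WT at 24 h against 0 h, Mrpl34 -0.03 in Rb1KO at 24 h against 0 h, and Mrps5 -0.02 in Rb1KO at 48 h against 24 h. Counts of members that passed moved by over 1.5 times as follows. For WT 24 h against 0 h (11) centring gave 26, array weights 19, only the compared arrays 19 and leaving out the 4 arrays apart 17. For WT 48 h against 24 h (27) the mean over probe sets gave 17. For Rb1KO 48 h against 24 h (24) centring gave 37, the mean over probe sets 15, only the compared arrays 6 and no Y-linked arrays 4. For p107KO 24 h against 0 h (4) they were 13 with centring, 2 with only the compared arrays, 0 with no Y-linked arrays and 1 without the 4 arrays apart. For cultured against fresh DKO (17) they were 36 with array weights, 47 with only the compared arrays, 32 without the 4 arrays apart and 7 without the 48 h arrays. For Rb1KO against WT over the times (18) the mean over probe sets and no Y-linked arrays gave 10 each and no 48 h arrays 2. At 24 h (6) only the compared arrays gave 0, and at 48 h (6) they gave 2, no Y-linked arrays 0 and no arrays apart 11. DKO against Rb1KO (0) gave 6 with array weights and 1 without the 48 h arrays, and DKO against p107KO (2) gave 1 with no filter, with only the compared arrays or without the 4 arrays apart, and 0 without the 48 h arrays.

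The members' median moved past the arrays' spread with centring for WT (0.32), Rb1KO (0.10) and p107KO (0.27) at 24 h against 0 h and for cultured DKO (-0.11), and for cultured DKO without the 4 arrays apart (-0.49) and without the 48 h arrays (0.03). In these 4 comparisons, in that order, centring moved the median of all genes by 0.26, 0.25, 0.18 and 0.16. Without the 4 arrays apart the 48 h array alone stands for cultured DKO. Without the 48 h arrays the 24 h array alone does, so these medians compare single culture times with 0 h.

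With arrays left out in turn, counts ran from 7 to 14 for WT 24 h against 0 h, 7 to 33 for WT 48 h against 24 h, 18 to 34 and 4 to 26 for the same steps in Rb1KO, 1 to 13 for p107KO and 3 to 26 for cultured DKO. They ran from 9 to 22 for Rb1KO against WT over the times, 0 to 10 at 24 h and 1 to 7 at 48 h, and were 0 throughout at 0 h. They ran from 0 to 1 for the first-day interaction and DKO against Rb1KO, 0 to 3 for DKO against p107KO, and were 0 for the later interaction and p107KO against WT. Medians ran from -0.05 to 0.14, -0.58 to -0.40, -0.19 to -0.09, -0.40 to -0.29, 0.01 to 0.15 and -0.49 to 0.03 for the culture steps in that order, from -0.25 to -0.18 over the times, -0.16 to -0.05 at 0 h, -0.40 to -0.20 at 24 h and -0.25 to -0.16 at 48 h for Rb1KO against WT, from -0.29 to -0.07 and 0.04 to 0.26 for the interactions, and from 0.02 to 0.08, 0.12 to 0.22 and -0.08 to 0.00 for p107KO against WT, DKO against Rb1KO and DKO against p107KO. A lone sample left in a group was assumed to vary like the others.

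Over 7 pairs of groups compared, deviations of same-numbered replicates correlated from -0.17 to 0.22. Over all groups they reached 0.42, between replicate 1 of p107KO and Rb1KO at 0 h. No set of 3 or more pairs had every correlation over 0.1, and the numbers were not taken to pair the samples. With the replicate block 2 members passed for DKO against Rb1KO, against 0 without it, and 32 fell in WT and 19 in Rb1KO between 24 h and 48 h. The dimmest member, Mrps27, had a mean signal of 273, and signal over background was not assessed.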
